A study of Mus musculus with 17 samples.

Results

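Serotonin neuron genes are a set of 5 genes, Slc6a4, Tph2, Fev, Htr1a and Gata3, among the 20328 genes listed in the bulk RNA-seq table of a mouse study of Parkinson's disease. They were picked by symbol for their levels in these same libraries, in all 3 comparisons of groups, so their levels and differences are given as a description without a test. All 5 genes had a row and entered the fit across 19300 genes, although Fev entered through the sham and NDST3-treated libraries, since the lesioned library held only 2 Fev counts. The RNA came from the brain of wild-type (WT) ICR mice, an outbred strain, that were 8 weeks old at the lesion, and the labels name no dissected region. The sham group (treatment label Sham-control) had 2 libraries. The 6-OHDA group had 1 library, from mice injected on one side of the substantia nigra with 10 µg/µl of 6-hydroxydopamine, a toxin that enters catecholamine neurons through their transporters, and given saline in place of NDST3. The 6-OHDA+NDST3 group had 2 libraries from mice with the same lesion that received 2 µl of an AAV9 vector carrying human NDST3, a heparan sulfate N-deacetylase and N-sulfotransferase, into the substantia nigra 5 days later. The vector's CMV promoter is not restricted to one cell type, and no source used here says whether a library held 1 or several mice. Where p-values are given they therefore measure only the spread between these libraries.

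Serotonin neurons of the adult brain lie in the raphe nuclei of the midbrain, pons and medulla. Their axons reach most of the forebrain and, within the midbrain, the substantia nigra. These neurons make serotonin from tryptophan in 2 steps. Tph2, the neuronal tryptophan hydroxylase, carries out the rate-limiting step, and Ddc, an enzyme shared with dopamine neurons, carries out the next. The vesicular transporter Slc18a2 (VMAT2) loads serotonin into vesicles, the plasma membrane transporter Slc6a4 (SERT) takes it back up, and the monoamine oxidases break it down. Fev (Pet-1), an ETS-family transcription factor, is known to maintain this set of genes and is close to specific for serotonin neurons in the brain. Gata3, a zinc finger transcription factor, acts in serotonin neuron differentiation but also marks GABAergic neurons of the midbrain and pons, and outside the brain T cells. Htr1a encodes the inhibitory 5-HT1A receptor, which is an autoreceptor on serotonin neurons and is also found on their target neurons. Slc6a4, Tph2 and Fev thus mark the serotonin neuron itself, whereas Htr1a and Gata3 are shared with other neurons.

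In the GRCm38.p6 annotation Slc6a4 lies at chr11:76998597-77032343, Tph2 at chr10:115078641-115185022, Fev at chr1:74881501-74885473, Htr1a at chr13:105443693-105448133 and Gata3 at chr2:9857078-9887953. The only listed gene that overlaps any of them is 4930412O13Rik, a noncoding gene within the Gata3 locus, read 77 and 89 times in sham, 13 times in 6-OHDA and 77 and 55 times with NDST3. The promoter windows of the 3 genes that mark the serotonin neuron itself are shown, with the letters that GATA factors such as Gata3 and ETS factors such as Fev are known to bind. Each window runs from 250 bases before to 50 bases after the RefSeq start site, 5′ to 3′ on the strand of the gene, at chr11:76998347-76998646 (plus strand) for Slc6a4, chr10:115184973-115185272 (minus strand) for Tph2 and chr1:74885359-74885658 (minus strand) for Fev. Capitals mark the 6-letter GATA motifs, the ETS core CGGAA and the TATA box TATAAA, on either strand.
Slc6a4: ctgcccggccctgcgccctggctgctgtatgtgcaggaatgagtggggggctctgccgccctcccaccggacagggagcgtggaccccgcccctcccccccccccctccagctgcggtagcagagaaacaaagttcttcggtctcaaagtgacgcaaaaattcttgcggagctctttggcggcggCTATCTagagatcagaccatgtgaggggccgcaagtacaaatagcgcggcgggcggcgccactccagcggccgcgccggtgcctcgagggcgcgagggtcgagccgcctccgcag
Tph2: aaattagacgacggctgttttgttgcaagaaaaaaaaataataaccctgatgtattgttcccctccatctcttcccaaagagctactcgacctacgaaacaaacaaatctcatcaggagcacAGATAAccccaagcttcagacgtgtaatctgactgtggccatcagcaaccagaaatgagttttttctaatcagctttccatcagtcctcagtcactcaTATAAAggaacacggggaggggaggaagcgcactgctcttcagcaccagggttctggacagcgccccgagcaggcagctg
Fev: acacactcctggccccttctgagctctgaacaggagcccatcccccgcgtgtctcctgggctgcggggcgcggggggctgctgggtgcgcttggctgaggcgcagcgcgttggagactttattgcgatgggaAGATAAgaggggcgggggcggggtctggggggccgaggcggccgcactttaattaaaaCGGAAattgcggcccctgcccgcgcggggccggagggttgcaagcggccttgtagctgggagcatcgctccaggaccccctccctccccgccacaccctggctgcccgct
The GATA motif was searched as AGATAA or as AGATAG or as TGATAA or as TGATAG on both strands, and at least 1 of these forms was present in 29.8% of all 32851 promoter windows. The Slc6a4 window held AGATAG on the reverse strand, and the Tph2 and Fev windows held AGATAA on the forward strand, with first letters 65, 128 and 118 bases before the start site. The Gata3 window held TGATAG on the forward strand and the Htr1a window held none of these forms. CGGAA was present in 29.9% of all windows, among them those of Fev and Gata3, and TATAAA in 13.6%, among them that of Tph2, where it began 30 bases before the start site. These matches describe the letters in the windows, and no search motif overlapped another in them.

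Slc6a4 and Tph2 were read at least 3194 times in each sham library and at most 49 times in the 6-OHDA library, and both NDST3-treated libraries held them near the level of the lower sham library. CPM are counts scaled to a common library size using library totals and TMM factors, and total counts were 51003699 to 70533326. Slc6a4 counted 6389 and 3194 reads in sham, 14 in 6-OHDA, and 3114 and 2639 with NDST3, which is 124, 46.3, 0.271, 52.3 and 44.2 CPM. Tph2 counted 8479 and 4597 reads in sham, 49 in 6-OHDA, and 4223 and 3559 with NDST3, or 165, 66.6, 0.949, 70.9 and 59.6 CPM. For both genes the 6-OHDA library lay far below the other 4, and the NDST3-treated libraries overlapped the sham range. The mean sham level of Slc6a4, 85.2 ± 55.0 CPM (SD, n = 2), was 314-fold that of the 6-OHDA library, and that of Tph2, 116 ± 69.3 CPM (SD, n = 2), was 122-fold. With NDST3 the means were 48.3 ± 5.72 CPM for Slc6a4 and 65.3 ± 7.99 CPM for Tph2 (SD, n = 2), which is 178-fold and 68.8-fold the 6-OHDA library. Counting error alone puts the pooled ratio of NDST3-treated over 6-OHDA reads between 106 and 326 for Slc6a4 and between 52.0 and 93.1 for Tph2 (95% exact binomial interval). In bulk RNA, fewer serotonin neurons in the sampled tissue and less of these transcripts per neuron cannot be told apart.

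Fev followed the same course at a lower level. It counted 320 and 162 reads in sham, 2 in 6-OHDA, and 162 and 103 with NDST3, or 6.21, 2.35, 0.0387, 2.72 and 1.73 CPM. The 6-OHDA library again lay below all others, and 1 of the 2 NDST3-treated libraries was inside the sham range. Because the 6-OHDA library held so few Fev reads, the ratio of sham over 6-OHDA reads of 103 has a 95% counting interval of 28.4 to 855, and that of NDST3-treated over 6-OHDA reads, 57.4, has one of 15.7 to 476. These intervals cover counting error only.

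Htr1a and Gata3 were lower in the 6-OHDA library by a smaller factor. The receptor gene Htr1a counted 1153 and 1961 reads in sham, 154 in 6-OHDA, and 1361 and 843 with NDST3, or 22.4, 28.4, 2.98, 22.9 and 14.1 CPM. Gata3 counted 1113 and 1580 reads in sham, 152 in 6-OHDA, and 1240 and 722 with NDST3, or 21.6, 22.9, 2.94, 20.8 and 12.1 CPM. One NDST3-treated library was inside the sham range for Htr1a, whereas for Gata3 both were below it. The sham means, 25.4 ± 4.25 CPM for Htr1a and 22.3 ± 0.902 CPM for Gata3 (SD, n = 2), were 8.52-fold and 7.56-fold the 6-OHDA level, and the NDST3-treated means, 18.5 ± 6.18 and 16.5 ± 6.17 CPM, were 6.20-fold and 5.59-fold.

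**Figure D1:**
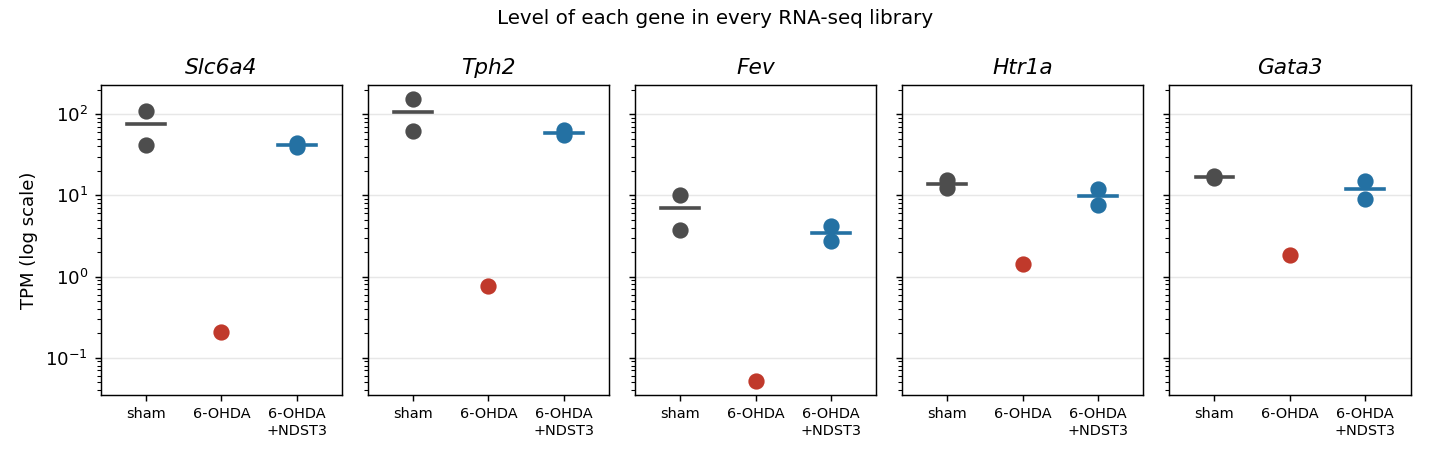
TPM, the length-scaled transcript level (log axis), of each gene in the 2 sham, 1 6-OHDA and 2 NDST3-treated libraries, 1 point per library, with a line at the mean of each group with 2 libraries. The 6-OHDA library lies below the other 4 for every gene, by the widest margin for Slc6a4 (0.208 TPM against at least 38.8) and the narrowest for Gata3 (1.85 TPM against at least 8.99).

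The fit across all genes gave log2 differences between the 6-OHDA library and sham of -8.28 for Slc6a4, -6.92 for Tph2, -6.71 for Fev, -3.09 for Htr1a and -2.92 for Gata3. All 5 genes were thus at least 4-fold lower, a size reached by 2.81% of the 19300 genes tested, and the 6-OHDA library lay below all 4 others for all 5, as it did for 37.9% of those genes. Between the NDST3-treated libraries and the 6-OHDA library the log2 differences were 7.46, 6.10, 5.77, 2.63 and 2.48 in the same order. All 5 were at least 4-fold higher, against 2.0% of genes tested. Since the set was picked for these differences, nothing is read from the counts. Between the NDST3-treated and sham libraries the log2 differences were -0.82 for Slc6a4 and for Tph2, -0.94 for Fev, -0.46 for Htr1a and -0.43 for Gata3, and none of the 5 was 4-fold apart, against 2.05% of genes tested. All 3 comparisons share libraries, so the values of one are not independent of those of the others.

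The 2 sham libraries differed from each other in the serotonin neuron markers. Sham replicate 1 held 2.68-fold as much Slc6a4, 2.47-fold as much Tph2 and 2.65-fold as much Fev as sham replicate 2. Among 15523 genes with a mean of at least 1 CPM, 2.96% were at least 2-fold higher in sham replicate 1, and the median ratio was 0.982. Htr1a and Gata3 did not share this split, with ratios of 0.788 and 0.944. Markers of other neurons differed between the same libraries in both directions: the 4 cholinergic genes summed to 62.3 CPM in sham replicate 1 and 23.2 CPM in sham replicate 2, and the 6 genes of the tectum (the dorsal midbrain) to 40.1 and 84.2 CPM. Their part in the result was not tested. The level of Slc6a4, Tph2 and Fev relative to sham therefore depends on which sham library is used. Without sham replicate 1 the log2 difference between NDST3-treated and sham libraries was 0.06 for Slc6a4, -0.03 for Tph2 and -0.08 for Fev, and without sham replicate 2 it was -1.36, -1.34 and -1.48.

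Levels can be compared between the genes on the length-scaled TPM values. In both sham libraries and both NDST3-treated libraries Tph2 was highest, followed by Slc6a4, Gata3, Htr1a and Fev. In the sham libraries Tph2 was at 153 and 61.9 TPM and Slc6a4 at 110 and 41.1 TPM, so the spread between libraries exceeded the distance between these neighbours, although Tph2 was 1.39 to 1.51 times Slc6a4 within each library of these groups. Gata3 (16.4 and 17.2 TPM) and Htr1a (12.3 and 15.6 TPM) were near each other in sham, and with NDST3 their ranges overlapped (14.9 and 8.99 against 12.1 and 7.66 TPM). Fev was lowest in each, at 10.2 and 3.77 TPM in sham and 4.21 and 2.72 TPM with NDST3.

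The order was different in the 6-OHDA library. Gata3 stood first with 1.85 TPM, then Htr1a with 1.43, Tph2 with 0.758, Slc6a4 with 0.208 and Fev with 0.0521 TPM. Tph2 was 9.36 and 3.59 times Gata3 in the sham libraries and 0.411 times Gata3 in the 6-OHDA library. Within the serotonin neuron markers, Tph2 was 3.65 times Slc6a4 there, on 49 and 14 reads. The ratio of Htr1a to Gata3 in TPM stayed between 0.752 and 0.905 in all 5 libraries.

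The genes of the dopamine neurons, which the lesion targets, varied in how near to their sham level they were after NDST3. Th, the rate-limiting enzyme of dopamine synthesis, was at 115 and 135 CPM in sham and 2.15 CPM in 6-OHDA, and its NDST3-treated mean of 9.75 CPM was 7.80% of the sham mean. Slc6a3, the dopamine transporter, counted 11759 and 16812 reads in sham, 8 in 6-OHDA, and 380 and 80 with NDST3, so its NDST3-treated mean was 1.64% of sham. Nr4a2 (Nurr1), a regulator of dopamine neuron identity, reached 29.8%. Of the other 7 genes on the dopaminergic list, Pitx3, Ret, Slc10a4 and Lmx1a were at 16.6% to 37.1% of sham, Drd2 at 49.3%, Aldh1a1 at 83.5% and Otx2 at 168%. The NDST3-treated means of the serotonin neuron genes were 56.7% of sham for Slc6a4, 56.5% for Tph2, 52.0% for Fev, 72.8% for Htr1a and 74.0% for Gata3. The difference between both sets was not tested, since the serotonin neuron genes were picked from these values. All 10 genes of the dopaminergic list had a row, and they summed to 864 and 912 CPM in sham, 223 CPM in 6-OHDA, and 314 and 315 CPM with NDST3.

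**Figure D2:**
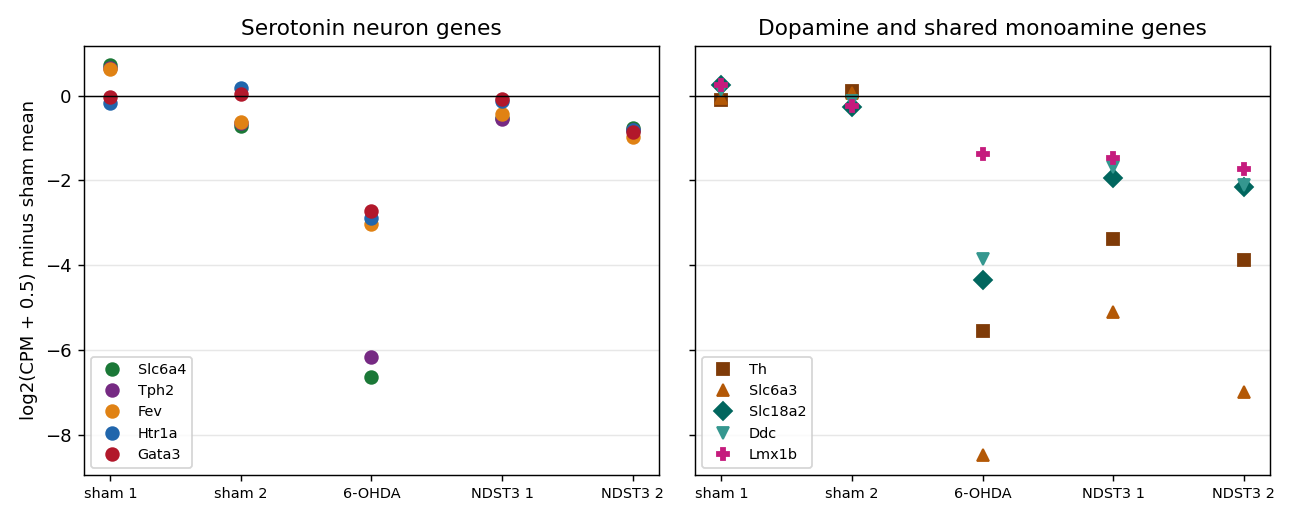
Level in each library as log2(CPM + 0.5) minus the sham mean, 1 point per gene and library, for the 5 serotonin neuron genes (left) and for Th, Slc6a3, Slc18a2, Ddc and Lmx1b (right). In the NDST3-treated libraries the serotonin neuron genes lie between -0.09 and -0.97, and the other 5 genes between -1.48 and -7.00.

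The other genes of the serotonin system were taken from 4 lists of 39 genes that do not include the 5 above, of which 38 had a row (Htr3b was not listed), and these were tested with edgeR's quasi-likelihood test and Benjamini-Hochberg adjustment over all 19300 genes. In the 6-OHDA library 25 of 38 fell against sham and 4 rose (65.8% and 10.5%, against 17.1% and 18.8% of all genes tested). Their median log2 fold change was -1.55, against 0.00 over all genes. With NDST3, 11 of 38 rose against the 6-OHDA library and none fell (28.9% against 9.06% of all genes rising, and 6.59% falling), with a median log2 fold change of 1.17. These 11 were Foxa2, Ddc, Slc18a2, Slc29a4, Htr1b, Htr1d, Htr2c, Htr4, Htr5a, Htr5b and Htr7, and each had also fallen against sham. Of the genes not called in this comparison, 3 had an unadjusted p under 0.05 with a lower level, and DESeq2 called 2 lower. Between NDST3-treated and sham libraries edgeR called none of 38, or 0.0% of all genes. However, 9 of 38 had an unadjusted edgeR p under 0.05, against 2744 of all 19300 genes. DESeq2 called 6 of 38 there, and 1048 over all genes. The single 6-OHDA library was assumed to vary like the other groups, with 2 residual degrees of freedom. Leaving out either sham library took away the edgeR calls of both comparisons with 6-OHDA over all genes, not only over these 38. Without NDST3-treated replicate 1 nearly all calls of NDST3-treated against 6-OHDA were lost likewise. For 6-OHDA against sham the log2 fold changes kept their sign in 38 and 37 of 38 genes without sham replicates 1 and 2. For NDST3-treated against 6-OHDA they did so in 38 and 38 genes, and in 36 without NDST3-treated replicate 1. Every fit reused the same 6-OHDA library.

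The synthesis and storage genes that serotonin neurons share with dopamine neurons fell in 6-OHDA and rose with NDST3, to levels below those of both sham libraries. Ddc was at 177 and 148 CPM in sham, 10.7 in 6-OHDA, and 50.4 and 36.8 with NDST3. It fell by 3.93 ± 0.278 (SE) on the log2 scale against sham (edgeR adjusted p = 0.00823) and rose by 2.03 ± 0.251 with NDST3 (edgeR adjusted p = 0.032). Slc18a2 was at 168 and 118 CPM in sham, 6.35 in 6-OHDA, and 36.1 and 31.1 with NDST3. Its log2 fold changes were -4.49 ± 0.308 and 2.40 ± 0.276 (SE; edgeR adjusted p = 0.00823 and 0.032). Both NDST3-treated libraries lay below both sham libraries for these 2 genes, at 26.8% and 23.5% of the sham mean, but the difference from sham did not pass the test (edgeR adjusted p = 0.152 for each). Per length, Slc18a2 was 0.705 and 1.22 times Tph2 in sham, 4.69 times in 6-OHDA, and 0.351 and 0.360 times with NDST3.

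Of the enzymes that make and recycle tetrahydrobiopterin, the cofactor of Tph2, some fell and others were not called. Gch1, the first enzyme, fell in 6-OHDA (log2 fold change -1.90 ± 0.262 SE, edgeR adjusted p = 0.00958), as did its feedback regulator Gchfr and the recycling enzyme Pcbd1. Pts and Spr, which complete the synthesis, and Qdpr, a recycling enzyme, had log2 fold changes of 0.37, -0.36 and -0.51 and were not called. Of the breakdown enzymes, Maoa (72.5 and 64.8 CPM in sham, 77.6 in 6-OHDA, 68.8 and 77.9 with NDST3) and Maob were not called in any of the 3 comparisons. The low-affinity monoamine transporters Slc22a3 and Slc29a4 fell in 6-OHDA, with log2 fold changes of -1.61 and -1.50. For Slc22a3 the call was close to the threshold (edgeR adjusted p = 0.0499, against 0.00931 for Slc29a4). Of these genes Slc29a4 rose with NDST3 (1.07 ± 0.20 SE, edgeR adjusted p = 0.0378). Slc18a1, the vesicular transporter best known from endocrine cells, also fell but held only 8 to 41 reads per library. Tph1, the non-neuronal tryptophan hydroxylase, was not called. It counted 14 and 10 reads in sham, 14 in 6-OHDA, and 6 and 257 with NDST3, so 1 NDST3-treated library stood apart from the other 4.

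Transcription factors known from serotonin and midbrain development moved in both directions. Foxa2 counted 259 and 416 reads in sham, 12 in 6-OHDA, and 160 and 105 with NDST3. It fell by 4.56 ± 0.497 (SE) on the log2 scale and rose by 3.25 ± 0.477 with NDST3 (edgeR adjusted p = 0.00823 and 0.0335). En1 and En2, which pattern the midbrain and anterior hindbrain, fell (log2 fold changes -4.32 and -2.37) and were not called with NDST3 (edgeR adjusted p = 0.056 and 0.0725). Lmx1b, which lies with Fev in the serotonin program and is also used by dopamine neurons, was at 13.2 and 9.26 CPM in sham, 3.93 in 6-OHDA, and 3.65 and 2.95 with NDST3. All 3 lesioned libraries lay below both sham libraries, and Lmx1b fell in 6-OHDA (log2 fold change -1.51 ± 0.324 SE, edgeR adjusted p = 0.0235) without a call for NDST3 against 6-OHDA (-0.25 ± 0.305 SE, edgeR adjusted p = 0.578). Gata2 and Insm1 fell (log2 fold changes -1.13 and -1.27, edgeR adjusted p = 0.0442 and 0.042), both close to the threshold. Nkx2-2, a factor also used by glial progenitors, rose (0.69, edgeR adjusted p = 0.0223).

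Of 12 serotonin receptor genes measured besides Htr1a, 9 fell in 6-OHDA and 1 rose, against 17.1% and 18.8% of all genes tested, with a median log2 fold change of -2.18. The 10 pan-neuronal genes fell as well, 10 of 10, with a median of -1.39. Htr2c, a receptor on many neurons and on the choroid plexus, was at 131 and 155 CPM in sham, 31.5 in 6-OHDA, and 138 and 118 with NDST3. It fell by 2.18 ± 0.178 (SE) on the log2 scale and rose by 2.02 ± 0.176 (edgeR adjusted p = 0.00823 and 0.032). Htr1b, which acts on serotonin axon terminals and on many other terminals, was at 18.4 and 26.3 CPM in sham, 4.98 in 6-OHDA, and 23.4 and 18.3 with NDST3, with log2 fold changes of -2.17 ± 0.310 and 2.07 ± 0.308 (SE; edgeR adjusted p = 0.00996 and 0.0336). Htr5b, at 61 and 78 reads in sham, 8 in 6-OHDA and 61 and 137 with NDST3, gave the largest rise among them (3.40 ± 0.735 SE, edgeR adjusted p = 0.0454). Htr3a and Htr6 were not called in either comparison. Htr2b went the other way, with 15 and 5 reads in sham, 256 in 6-OHDA, and 66 and 158 with NDST3 (4.81 ± 0.852 SE on the log2 scale, edgeR adjusted p = 0.0148).

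Among genes of serotonin co-transmission and release, Slc17a8 (VGLUT3), which lets some serotonin neurons release glutamate, was at 15.3 and 6.20 CPM in sham, 1.22 in 6-OHDA, and 4.75 and 5.86 with NDST3. It fell in 6-OHDA (log2 fold change -3.13 ± 0.666 SE, edgeR adjusted p = 0.023), and its rise with NDST3 of 2.12 ± 0.637 did not pass the test (edgeR adjusted p = 0.0802). Like Slc6a4, Tph2 and Fev, it was higher in sham replicate 1 than in sham replicate 2. Crhr2 fell by 1.59, and S100a10 (p11), a partner of serotonin receptors that glia and blood vessels also express, rose by 1.79. P2ry1 was not called.

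**Figure D3:**
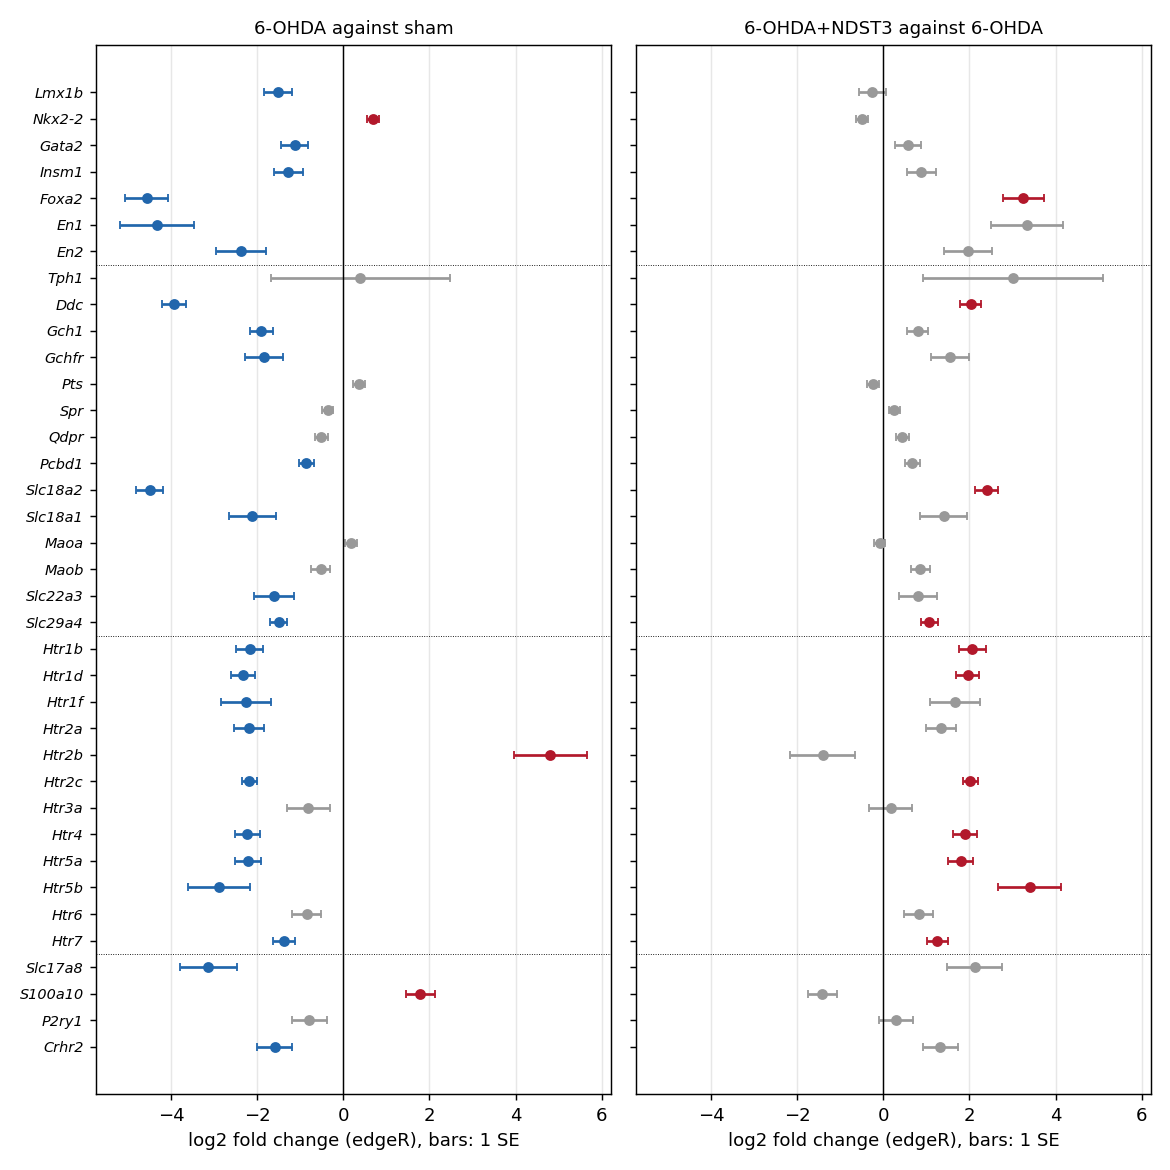
Log2 fold change with 1 standard error (edgeR) of 37 of the 38 other serotonin pathway genes in 6-OHDA against sham (left) and NDST3-treated against 6-OHDA (right), grouped by list between dotted lines (regulators, synthesis to breakdown, receptors, release partners). Blue points are called lower, red points called higher at an adjusted p under 0.05 and grey points not called, giving 25 lower and 3 higher on the left and 11 higher on the right.

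Genes whose profile over the 5 libraries was closest to the mean of Slc6a4, Tph2 and Fev were ranked by the root-mean-square difference in log2(CPM + 0.5) relative to sham, among the 15523 genes with a mean of at least 1 CPM and without the 5 serotonin neuron genes. The 10 nearest were Ucn, C1ql4, Cartpt, Slc6a5, Pax7, Glra1, Syt2, En1, Slc18a2 and Xkr7, with differences from 0.465 to 1.01, against a median of 2.44 over all genes compared. Ucn, which encodes the peptide urocortin, counted 928 and 534 reads in sham, 6 in 6-OHDA, and 511 and 280 with NDST3. Cartpt, the precursor of the CART peptide, counted 6025 and 4905 reads in sham, 265 in 6-OHDA, and 3889 and 2348 with NDST3. Both were higher in CPM in sham replicate 1, as were the serotonin neuron markers. Slc6a5, the neuronal glycine transporter, counted 1466 and 1289, 65, and 1235 and 660 reads in the same order. These are likenesses over 5 libraries only. The mean profile stood at -5.28 in the 6-OHDA library, whereas Slc6a4 stood at -6.63, Tph2 at -6.18 and Fev, with 2 reads there, at -3.02.

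Markers of other regions and cells moved between the same libraries. The 6 tectal genes (Pou4f1, Pou4f2 and Pou4f3 among them) summed to 40.1 and 84.2 CPM in sham, 2.81 in 6-OHDA, and 91.8 and 64.2 with NDST3, and 4 of 6 fell in 6-OHDA, against 17.1% of all genes tested. The 10 genes of midbrain and pontine GABAergic neurons that use Gata2 and Gata3 (Tal1, Sox14 and Gad1 among them) summed to 1264 and 1327 CPM in sham, 414 in 6-OHDA, and 1190 and 794 with NDST3, and 8 of 10 fell, against the same 17.1%. Of the 11 hypothalamic genes 10 had a row, and they summed to 25.5 and 20.3 CPM in sham, 177 in 6-OHDA, and 14.9 and 14.2 with NDST3, led by Pmch (25 and 274, 5185, 83 and 89 reads) and Hcrt (19 and 73, 3024, 44 and 2 reads). The list as a whole had a median log2 fold change of 0.04 in 6-OHDA against sham. Of its genes 3 were called higher and 1, Otp, called lower, against 18.8% and 17.1% of all genes tested. Of the 6 noradrenergic genes only Gal had a row, and Dbh and Slc6a2, which define those neurons, were not listed. Of the 12 Hox genes of the hindbrain only Hoxb4 was listed, at 6 to 16 reads.

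The pan-neuronal list was lower in 6-OHDA than in sham, and the astrocyte, microglia and monocyte or macrophage lists were higher in sum. The 10 pan-neuronal genes summed to 7535 and 8242 CPM in sham, 2674 in 6-OHDA, and 6527 and 5598 with NDST3. The 6 astrocyte genes summed to 2637 and 1736 CPM in sham, 9633 in 6-OHDA, and 3948 and 5254 with NDST3. The 6 microglia genes summed to 475 and 367 CPM in sham, 2585 in 6-OHDA, and 985 and 1447 with NDST3. The 6 monocyte or macrophage genes summed to 200 and 40.7 CPM in sham, 2883 in 6-OHDA, and 635 and 1087 with NDST3. For each of these 4 lists the NDST3-treated libraries lay between the sham libraries and the 6-OHDA library. The 6 oligodendrocyte genes had a median log2 fold change of 0.26 in 6-OHDA against sham, with 1 called higher, against 18.8% of all genes tested. The 7 cortical and hippocampal genes summed to 43.8 and 42.5 CPM in sham, 80.5 in 6-OHDA, and 40.4 and 66.8 with NDST3. The part of any of these lists in the levels of Slc6a4, Tph2, Fev, Htr1a and Gata3 was not tested, and with 1 lesioned library without NDST3 the lesion and the tissue taken for that library cannot be told apart.

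**Figure D4:**
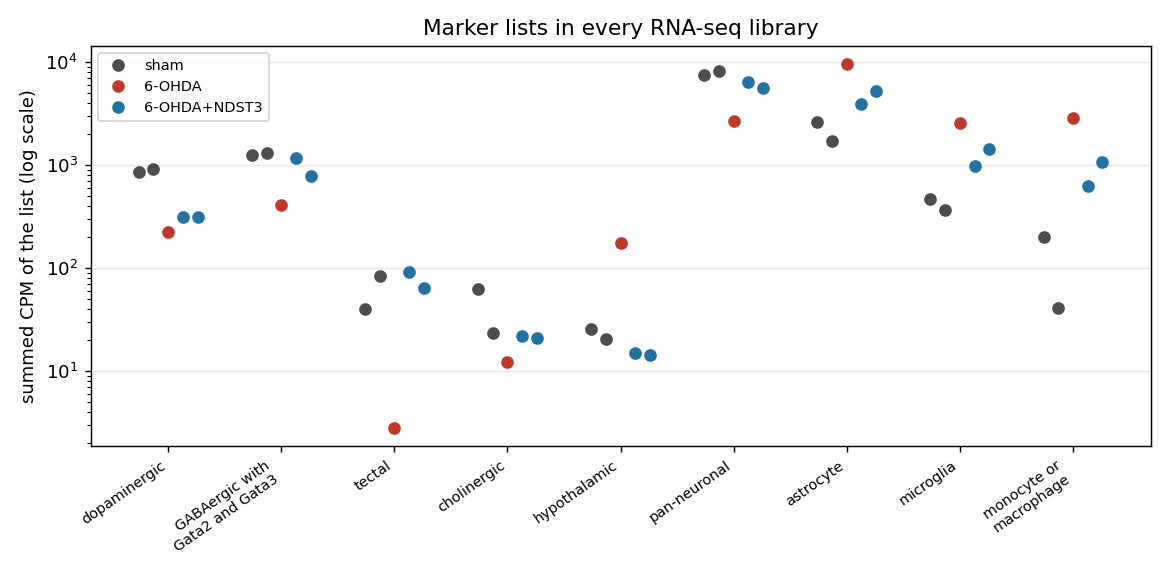
Summed CPM (log axis) of 9 marker lists in each RNA-seq library, 1 point per library and list, for sham, 6-OHDA and 6-OHDA+NDST3. Among the lists drawn, the 6-OHDA library is lowest for the neuronal lists except the hypothalamic one. It is highest for the hypothalamic, astrocyte, microglia and monocyte or macrophage lists. Among lists not drawn, it is not lowest for the cortical and hippocampal, thalamic, cerebellar and histaminergic ones.

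The single-cell table gave mean natural log values over the cells of 9 clusters for 26648 gene names. It covered 1 6-OHDA library and 1 NDST3-treated library and had no columns for the sham library. Slc6a4, Tph2, Fev and Htr1a had no cluster above 0.0134. Slc6a4 was above 0 in 11 of 18 cluster means and Tph2 in 10 of 18, whereas Fev and Htr1a were above 0 in 1 each. Outside this set, Ddc was at 0.558 (6-OHDA) and 0.619 (NDST3-treated) in cluster 7, which the study named endothelial. Lmx1b was at 0.156 and 0.211 in cluster 2, which the study named astrocytes. Slc18a2 had no cluster above 0.0723. All 10 pan-neuronal genes were in the table, and 8 of them were highest in cluster 2, where their median was 0.0413. In clusters 2, 5 and 7, 1 of the 10 was above 0.1, and in the other clusters none.

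Gata3 was the exception among the 5 serotonin neuron genes, and its single-cell signal lay in 2 clusters. Its mean was 0.576 in the 6-OHDA library and 0.416 in the NDST3-treated library in cluster 4, 0.399 and 0.298 in cluster 8, and at most 0.00976 in every other cluster. Cluster 4 was T cell-like, since all 8 T cell genes on the list were above 0.1 and highest there, with Ccl5, Nkg7, Ms4a4b, Cd3g and Ctla4 as its leading genes. Cluster 8 was led by Gm20186, Il23r, Dusp10, Trdc and Nrip1. Above 0.1 it held all 8 T cell genes, 5 of 9 innate lymphoid, 5 of 6 NK cell and 5 of 6 microglia genes. Highest in cluster 8 were 8 of 9 innate lymphoid and 3 of 6 NK cell genes, but 0 T cell and 0 microglia genes. All 5 mast cell genes were highest there too, with 0 above 0.1. The T cell list had the higher median in cluster 8, 0.995 against 0.145 for the innate lymphoid list. By these values cluster 8 was lymphoid-like with both T cell and innate lymphoid markers, and no firmer name was given. The difference, NDST3-treated minus 6-OHDA, was -0.16 in cluster 4 and -0.10 in cluster 8, and 4.37% and 6.42% of genes with a mean above 0.1 in either library had a difference as low or lower. With 1 library per group there is no replicate check. In the bulk libraries 4 of 8 T cell genes had a row, and they summed to 5.38 and 5.03 CPM in sham, 6 in 6-OHDA, and 4.96 and 8.18 with NDST3.

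**Figure D5:**
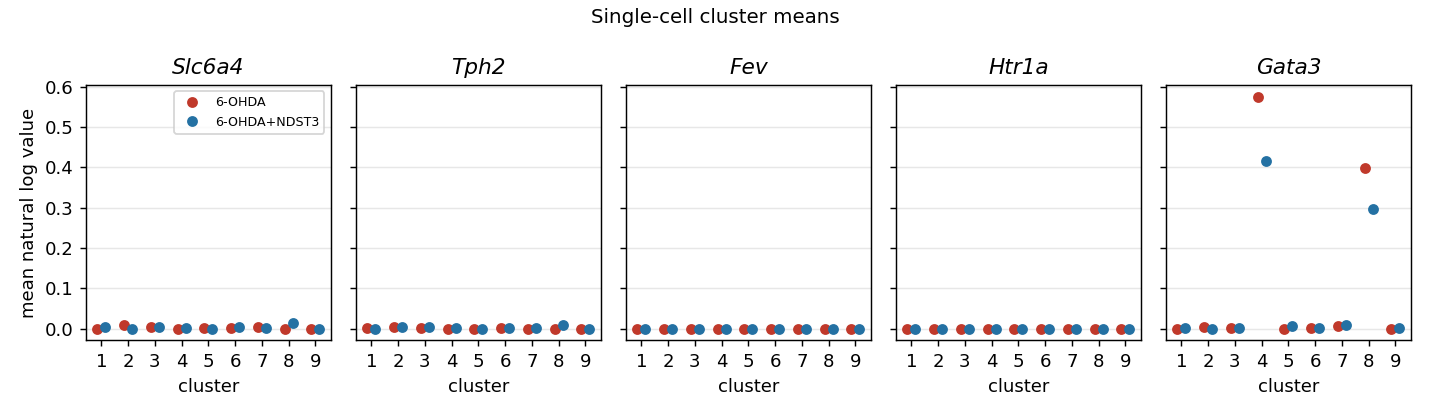
Mean natural log value of each serotonin neuron gene in the 9 single-cell clusters of the 6-OHDA (red) and 6-OHDA+NDST3 (blue) libraries, 1 point per cluster and library. Only Gata3 in clusters 4 and 8 rises above the baseline, at 0.298 to 0.576, and the other 4 genes stay at or below 0.0134.

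The chromatin tables held a single region for the 5 genes. The ATAC-seq table, which measures open chromatin in 1 library per group, listed 3582 regions near the start sites of 2685 genes, and 1 of them belonged to Gata3, 517 bases before its start site. Its signal was 10.48 in sham, 8.25 in 6-OHDA and 7.73 with NDST3. With a pseudocount of 1 the ratio of 6-OHDA over sham was 0.806 and that of NDST3 over 6-OHDA 0.944, each against a median of 1.08 over all regions. Without replicates no error can be given. The H3K27ac CUT&RUN table, which marks active promoters and enhancers and gives 1 pooled value per group, listed 11424 regions for 7254 genes and none for Slc6a4, Tph2, Fev, Htr1a or Gata3.

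For 12 other serotonin pathway genes the CUT&RUN table listed 17 regions. The signal was higher with NDST3 than in 6-OHDA in 15 of them, against 96.3% of all regions, and the median ratio was 1.33 against 1.31. At Spr, 155 bases before the start site, it was 13.37 in sham, 18.35 in 6-OHDA and 38.23 with NDST3, while Spr RNA was not called in any comparison. At Htr6, 157 bases after the start site, it was 1.51, 10.45 and 12.44, and Htr6 RNA was not called either. At Htr1b, 157 bases before the start site, it was 11.58, 13.90 and 13.90. At Htr5a it was 15.56, 12.95 and 18.93, and at Gchfr 10.8, 9.95 and 18.48. The largest ratio of NDST3 over 6-OHDA among the 17, 4.23, was at an Slc18a1 region (21.19, 5.45 and 26.26). RNA of Htr5a, Gchfr and Slc18a1 fell in 6-OHDA, and that of Htr5a was called higher with NDST3. Some Slc18a1 regions and all listed Htr4 regions were higher in 6-OHDA than in sham, although RNA of both genes fell. Whether signal and RNA moved together was not tested. The positions in both chromatin tables did not match the start sites of GRCm38, the build that the labels name as mm10: 8.17% of ATAC-seq regions and 2.80% of H3K27ac regions lay within 5 bases of where their listed distance puts them, so no sequence was read at them.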

How the data were processed

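RNA-seq was measured in 5 libraries (2 sham, 1 6-OHDA, 2 6-OHDA+NDST3). According to the study's methods, the authors used Trimmomatic 0.38 for trimming, HISAT2 2.1.0 for alignment against mm10 and StringTie 2.1.3b for assembly, and deposited raw counts, FPKM and TPM per gene. The other deposited tables hold natural log mean expression per single-cell cluster (Cell Ranger 7.0.1, Seurat 4.3.0, after limits on detected genes and mitochondrial content set against multiplets), and ATAC-seq and H3K27ac signal per region. Columns of the authors' own fold changes and p-values were not used. Counts were filtered with filterByExpr, scaled by TMM and tested with edgeR 4.0.16 (quasi-likelihood, all 5 libraries, Benjamini-Hochberg, adjusted p under 0.05). Alternatives were limma 3.58.1, applied to FPKM on the log2 scale after adding 1 or 0.1, and DESeq2 1.42.0. On counts simulated for 6-OHDA against sham over 19146 genes, edgeR recovered 76.7% of genes changed 4-fold and 92.7% of those changed 8-fold (69 of 90 and 102 of 110), and called 19 unchanged genes. Those 19 were a larger share of its calls than the 0.05 threshold aims at. The simulation gave the 6-OHDA library the same spread as the others, so it cannot check that assumption. It also changed few genes, whereas 6916 were called in the real counts.

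The 5 serotonin neuron genes and the gene lists were chosen with earlier results of these data known. Genes named from the lists were those called, up to 6 per comparison by size of change, and those with a role in synthesis, storage, uptake or breakdown, and further list genes were named after their values were seen. Of each other list at most 3 genes were named in list order, except those named as absent or as leading a list, which were chosen after their values were seen. The 10 nearest profiles used CPM + 0.5. Promoter windows are from RefSeq on GRCm38.p6, and all 5 genes matched. Depth was 51003699 to 70533326 counts per library. Whether strand was used in counting and whether replicates came from separate animals is not given in the sources used here. The values of 1 listed gene are counted but not reported here.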

Additional observations from a re-analysis of the deposited data

How the results depend on the processing

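The 5 serotonin neuron genes kept their direction between 6-OHDA and the other groups under every alternative run. They were picked for these differences, and every run reused the only 6-OHDA library, so this is no independent check. The count at least 4-fold lower in 6-OHDA than in sham was 3 of 5 on mean FPKM + 1, and that of genes at least 4-fold higher with NDST3 than in 6-OHDA was 2 on mean FPKM + 1 and 3 at 8-fold, since by construction a pseudocount of 1 shrinks ratios of low values and 8-fold is a stricter bar. Leaving out a replicate gave 5, 5 and 0 of 5 in the 3 comparisons throughout, which for the same reason is no independent check. Slc6a4 turned from -0.82 to 0.06 (log2, NDST3-treated against sham) without sham replicate 1, and leaving out any 1 replicate gave -1.36 to 0.06.

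The pathway counts depended on few libraries. Leaving out 1 replicate moved the 6-OHDA against sham counts between 0 and 25 lower and between 0 and 4 higher, those of NDST3-treated against 6-OHDA between 0 and 13 higher with 0 lower, and those of NDST3-treated against sham between 0 and 2 lower with 0 higher. For NDST3-treated against 6-OHDA, with 11 higher and 0 lower, DESeq2 gave 20 higher and 2 lower. Over all genes DESeq2 called 5232 there and edgeR 3019. A fold of at least 2 with raw p under 0.05 gave 18 and 1, and limma gave 2 lower on log2(FPKM + 1) and 1 lower on log2(FPKM + 0.1). With only the 2 groups compared, edgeR gave 0 higher (21 of 38 genes at an unadjusted p under 0.05) and called 0 of all genes. For NDST3-treated against sham, with 0 and 0, DESeq2 and the fold threshold each gave 5 lower and 1 higher. The cause was not tested.

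Same-numbered sham and NDST3-treated libraries tended to deviate from their group means in opposite directions (correlation of deviations across genes -0.416). This gives no ground for pairing by number, and whether any libraries shared a batch or dissection was not tested. With the replicate number as a block, 11 pathway genes were lower and 0 higher in 6-OHDA than in sham, and 0 were higher with NDST3 than in 6-OHDA. Over all genes this block gave 1796 and 0 calls in these comparisons, against 6916 and 3019 without it. With the pairing crossed, an alternative chosen after seeing the data, the block gave 18 higher and 1 lower for NDST3-treated against 6-OHDA and 5 lower and 1 higher for NDST3-treated against sham. Over all genes the crossed block gave 4795 and 1194 calls in these comparisons, against 3019 and 0 without a block. Depth limits Fev in 6-OHDA, at 2 counts. Of the 10 genes nearest in profile, 7 and all 10 remained among the 10 with a pseudocount of 2 and with a mean CPM of at least 0.3, respectively.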

Other observations

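One NDST3-treated library held more reads of a tryptophan hydroxylase gene than the other 4 libraries. Tph1, the non-neuronal form, which the pineal gland and the gut are known for, counted 257 reads in NDST3-treated replicate 2 (4.31 CPM) and 6 to 14 reads elsewhere. Rbp3, a retinoid-binding protein gene known from the retina and the pineal gland, was looked up after these values were seen and counted 388 reads in the same library (6.50 CPM) and 10 to 22 reads in the others. Tph2, the neuronal tryptophan hydroxylase gene, was not higher in that library, with 59.6 CPM against 70.9 CPM in NDST3-treated replicate 1. These values were not tested.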
